A study of Homo sapiens with 8 samples.

Results

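MHCC-97H and MHCC-97L are human hepatocellular carcinoma cell lines that descend from the same parental tumour line, and they are named for high and low capacity to metastasize. The genes that separated the lines are described for cells that did not carry Flag-OGT, which is O-GlcNAc transferase with a C-terminal Flag tag. This enzyme attaches single N-acetylglucosamine sugars to nuclear and cytosolic proteins. The members were the RNA-seq libraries of the unmodified lines, 2 of MHCC-97H and 2 of MHCC-97L, of 8 RNA-seq libraries in the series. The other 4 libraries came from the same lines after lentiviral transfer of Flag-OGT and antibiotic selection. All cells were grown in DMEM with fetal calf serum, and total RNA was sequenced. No genotype label was given to the unmodified libraries, here the controls, and the labels do not say whether an empty vector was present in them. Each line is a single clone of 1 tumour, so a difference between them is a difference between a pair of clones, and metastasis itself was not measured.

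Values are FPKM, fragment counts scaled for transcript length and sequencing depth, as deposited. Of 18902 features, 12496 reached a mean of 0.5 FPKM over the 4 control libraries and were tested. Differences are MHCC-97H minus MHCC-97L on the log2(FPKM + 1) scale, which understates the change of low genes, each with its standard error (n = 2 libraries a line). A gene is called where its Benjamini-Hochberg adjusted p in limma, taken over all tested genes, lay under 0.05. The labels do not say that the libraries of a line came from separate cultures, so the p-values reflect library-to-library spread, which could be technical alone.

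Hepatocellular carcinoma cells keep a variable share of the hepatocyte programme, the secretion of albumin, apolipoproteins and protease inhibitors and the expression of drug- and alcohol-metabolizing enzymes under liver nuclear receptors. Loss of that programme and gain of matrix, cytoskeletal and growth factor genes are the changes most often described as liver tumour cells become invasive. The Hippo pathway, whose effectors YAP1 and WWTR1 act on TEAD-bound genes, and the epidermal growth factor and TGF-beta pathways are central to these changes.

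The control libraries of a line were close to each other (Pearson r of 0.997 to 0.998 across tested genes, which are not independent replicates), and those of different lines correlated with r of 0.947 to 0.954. Summed FPKM ran from 510449 to 562622, and 11044 to 11630 genes a library reached 1 FPKM; the read depth is unknown. Of the 12496 genes, 3444 (27.6%) were called higher in MHCC-97H and 4837 (38.7%) higher in MHCC-97L. Of these 8281, 8279 had libraries that did not overlap. With 2 libraries a line a call nearly implies such separation, so that count adds no support to the calls. A difference of at least 2-fold was called for 297 genes (2.38%) higher in MHCC-97H and 750 (6.0%) higher in MHCC-97L. The balance of the directions depended on the scaling. With median-of-ratios scaling 4646 and 3694 genes were called higher in MHCC-97H and in MHCC-97L, and 456 and 586 at 2-fold, as the median difference of all genes moved from -0.07 to 0.05. Group medians are therefore given relative to the median of all tested genes. Counts for gene groups are to be read beside the 27.6% and 38.7% of all tested genes. The difference also followed GC content (Spearman rho of -0.28 across genes) and transcript length (0.23 across genes), so medians after removal of that trend are given where they differ much.

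The liver label was carried weakly by the control libraries and hardly at all by the Flag-OGT libraries. The 10 hepatocyte markers together reached 26.0 and 26.8 FPKM in MHCC-97H controls, and 112 and 113 FPKM in MHCC-97L controls. In the Flag-OGT libraries the same sum was between 2.22 and 4.66 FPKM, and TTR was listed at 0. HNF4A, the nuclear receptor at the centre of hepatocyte identity, had 14.6 and 14.6 FPKM in MHCC-97H, 13.9 and 13.4 FPKM in MHCC-97L, and at most 0.04 FPKM in any Flag-OGT library. Control and Flag-OGT libraries of the same line correlated with r of only 0.757 to 0.773, below the r between the lines. The Flag-OGT libraries therefore enter no test before the comparison at the end, and are shown beside the controls only in the plots along the chromosomes. Of other cell types, the 9 bile duct (cholangiocyte) markers, which include KRT19 and SPP1, had the largest sums. They reached 537 and 491 FPKM in MHCC-97H controls, and 761 and 788 FPKM in MHCC-97L controls. The 9 endothelial markers summed to 34.9 and 34.7 FPKM in MHCC-97H, and to 50.4 and 47.9 FPKM in MHCC-97L. In MHCC-97H both sums exceeded that of the hepatocyte markers. Erythroid markers summed to at most 1.54 FPKM in a control library, and ACTA2, COL1A2, DES and THY1 were listed at 0 in both MHCC-97H controls. Among 11 fibroblast markers only LUM passed the filter. Of 12 leukocyte markers, CD68, a lysosomal protein of macrophages that many other cells also make, was at 79.8 and 77.5 FPKM in MHCC-97H and 63.7 and 63.4 FPKM in MHCC-97L, and HLA-DRA was listed at 0 in all 4.

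The genes highest in MHCC-97H relative to MHCC-97L encoded a secreted hormone, matrix and cytoskeletal proteins and tumour antigens. PTHLH, the parathyroid hormone-like hormone known for causing hypercalcaemia in cancer and bone loss around metastases, reached 21.6 and 21.8 FPKM in MHCC-97H and 0.34 and 0.55 FPKM in MHCC-97L. Its difference was 3.98 ± 0.09 (limma, adjusted p = 2.8e-09), and its mean FPKM was 48.7 times as high. VCAN, the large matrix proteoglycan versican, was at 10.96 and 11.5 FPKM against 0.2 and 0.16 FPKM, a difference of 3.38 ± 0.09 (adjusted p = 3.9e-09). Both genes were below 1 FPKM in MHCC-97L and above 10 FPKM in MHCC-97H.

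Cytoskeletal, signalling and transport genes followed; in what follows the value in brackets is the difference with its standard error. DPYSL3, which binds microtubules and actin, was at 14.8 and 16.9 FPKM in MHCC-97H and 0.79 and 0.87 FPKM in MHCC-97L (3.20 ± 0.09). TNS4, a tensin that binds integrin tails, was at 9.10 and 8.26 FPKM in MHCC-97H and 0.3 and 0.31 FPKM in MHCC-97L (2.89 ± 0.09). ANKRD1, a nuclear ankyrin repeat protein and a common readout of YAP1 activity, was at 12.8 and 13.4 FPKM in MHCC-97H and 1.19 and 0.74 FPKM in MHCC-97L (2.86 ± 0.11). All 3 were low but listed above 0 in MHCC-97L, and their adjusted p-values were 8e-09, 1.3e-08 and 5.3e-08. SLC38A5, an amino acid transporter, was at 28.4 and 29.7 FPKM in MHCC-97H and 2.38 and 2.13 FPKM in MHCC-97L (3.21 ± 0.08). DNAJC12, a cochaperone of the aromatic amino acid hydroxylases, was at 16.4 and 21.7 FPKM in MHCC-97H and 1.32 and 1.28 FPKM in MHCC-97L (3.11 ± 0.12). ANXA10, a member of the calcium-dependent membrane-binding annexins, was at 145 and 152 FPKM in MHCC-97H and 29.7 and 25.3 FPKM in MHCC-97L (2.40 ± 0.08). It was the most abundant of the 12 genes at this end, and the only one above 20 FPKM in MHCC-97L.

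The remaining genes at this end were cancer-testis antigens of the X chromosome, which are normally restricted to germ cells. CSAG1 was at 47.2 and 49.2 FPKM in MHCC-97H and 3.08 and 2.11 FPKM in MHCC-97L (3.79 ± 0.12). MAGEA12 was at 14.3 and 13.9 FPKM in MHCC-97H and 0.52 and 0.41 FPKM in MHCC-97L (3.37 ± 0.09). SPANXA1 and SPANXA2 had identical values in each library, 91.6 and 98.2 FPKM in MHCC-97H and 16.1 and 12.2 FPKM in MHCC-97L. They are near-identical copies, and the labels do not say how reads were shared between such copies, so they count as 1 observation. The antigens did not move as a family. GAGE2A was at 2.21 and 2.97 FPKM in MHCC-97H and 26.4 and 25.8 FPKM in MHCC-97L (-2.92 ± 0.10), and MAGEA6 was at 0.12 and 0 FPKM in MHCC-97H and 2.21 and 3.05 FPKM in MHCC-97L (-1.77 ± 0.12), both higher in MHCC-97L. Of 16 tested cancer-testis genes, 5 were called higher in MHCC-97H and 6 higher in MHCC-97L, 3 in each direction by 2-fold. At any size these are 31.25% and 37.5%, near the 27.6% and 38.7% of all tested genes. Members of the MAGEA, GAGE and CSAG families share sequence, so single members are uncertain.

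Genes highest in MHCC-97L were epithelial surface proteins, liver secretory proteins and metabolic enzymes. CST1, a secreted cystatin that inhibits cysteine proteases, was at 0.07 and 0.33 FPKM in MHCC-97H and 45.01 and 46.04 FPKM in MHCC-97L (-5.29 ± 0.11), with an adjusted p of 1.1e-09 in limma. TSPAN8, a tetraspanin of epithelial cells, was at 0.9 and 1.04 FPKM in MHCC-97H and 80.9 and 69.4 FPKM in MHCC-97L (-5.27 ± 0.09). CD24, a sialylated surface glycoprotein and marker of liver progenitors, was at 1.67 and 1.38 FPKM in MHCC-97H and 85.3 and 84.02 FPKM in MHCC-97L (-5.09 ± 0.08). Each went from under 2 FPKM in MHCC-97H to over 45 FPKM in MHCC-97L. TSPAN8 and CD24 are often described as promoters of metastasis, and here both were higher in the line named for low metastasis.

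Metabolic enzymes came next. PHGDH, the entry enzyme of serine synthesis, was at 0.98 and 1.06 FPKM in MHCC-97H and 38.6 and 40.4 FPKM in MHCC-97L (-4.33 ± 0.08), and its mean FPKM was 38.7 times as high in MHCC-97L. ADH1C, an alcohol dehydrogenase, was at 1.74 and 1.42 FPKM in MHCC-97H and 65.6 and 67.6 FPKM in MHCC-97L (-4.71 ± 0.08). CYP2B6, a drug-metabolizing cytochrome P450, was at 0.39 and 0.53 FPKM in MHCC-97H and 28.00 and 27.03 FPKM in MHCC-97L (-4.29 ± 0.09). ADH1C and CYP2B6 have close relatives that can share their reads. Plasma protein genes showed the same pattern of values near 1 FPKM in MHCC-97H. SERPINA1, encoding alpha-1-antitrypsin, was at 0.46 and 0.52 FPKM in MHCC-97H and 27.4 and 28.2 FPKM in MHCC-97L (-4.28 ± 0.08). APOE, an apolipoprotein of remnant particles, was at 1.30 and 0.72 FPKM in MHCC-97H and 32.7 and 34.4 FPKM in MHCC-97L (-4.12 ± 0.12). RBP4, the retinol carrier, was at 1.45 and 1.08 FPKM in MHCC-97H and 32.9 and 30.8 FPKM in MHCC-97L (-3.86 ± 0.10). Genes at either end were named only where the libraries of the lines did not overlap. Transferrin (TF), which carries iron, was at 2.14 and 2.04 FPKM in MHCC-97H and 43.7 and 42.9 FPKM in MHCC-97L (-3.84 ± 0.07). LY6E, an interferon-inducible GPI-anchored protein, was at 11.8 and 10.3 FPKM in MHCC-97H and 183 and 179.5 FPKM in MHCC-97L (-3.92 ± 0.08). ADAMTS10, a secreted protease-family protein of the matrix, was at 0.21 and 0.27 FPKM in MHCC-97H and 17.4 and 19.3 FPKM in MHCC-97L (-3.96 ± 0.09). LY6E was the most abundant of the 12 genes at this end, and in MHCC-97H it still exceeded 10 FPKM.

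**Figure D1:**
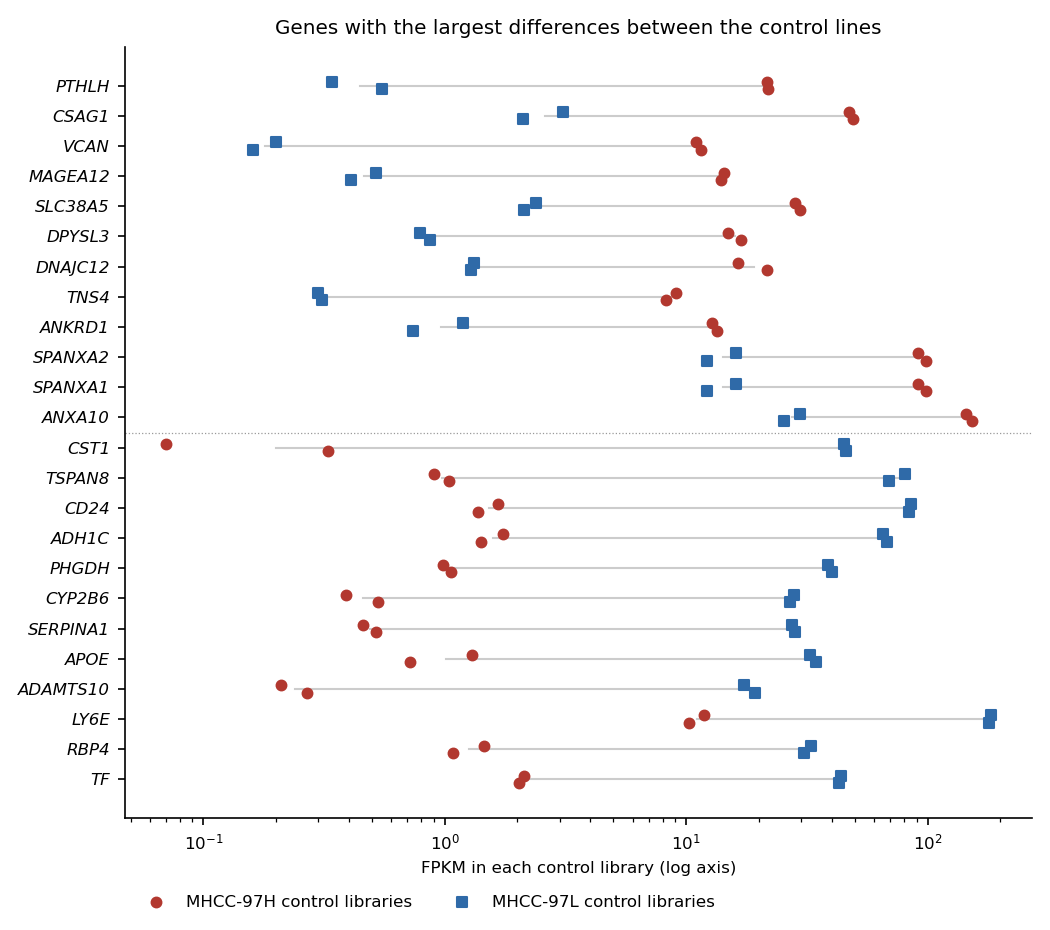
FPKM of the 12 genes with the largest called difference in each direction, on a log axis, with 1 point per control library for each line. Genes were chosen only where the libraries of the lines did not overlap, so the lines lie apart in each of the 24 rows. CST1 runs from 0.07 FPKM in MHCC-97H to 46.0 FPKM in MHCC-97L.

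Few genes were listed at or near 0 in a single line. Counting genes at or under 0.1 FPKM in both libraries of one line and at or over 1 FPKM in both of the other, 6 were found for MHCC-97H and 27 for MHCC-97L. ADGRG6, an adhesion receptor, was at 4.30 and 4.76 FPKM in MHCC-97H and 0.08 and 0.06 FPKM in MHCC-97L (2.37 ± 0.09). The cadherin CDH6 was at 4.26 and 4.74 FPKM in MHCC-97H and 0.1 and 0.09 FPKM in MHCC-97L (2.33 ± 0.09). ALX1, a homeobox factor, was at 2.26 and 1.74 FPKM in MHCC-97H and 0.09 and 0.04 FPKM in MHCC-97L (1.49 ± 0.11). The transcription factor EBF3, the zinc-finger gene ZNF93 and the cytokine CSF2 completed the MHCC-97H set, all 3 below 2.1 FPKM there. In the other direction, the galectin LGALS2 was at 0.1 and 0.1 FPKM in MHCC-97H and 10.3 and 12.46 FPKM in MHCC-97L (-3.48 ± 0.10). CST2, a neighbour and close relative of CST1, was at 0 and 0.09 FPKM in MHCC-97H and 7.65 and 6.72 FPKM in MHCC-97L (-2.97 ± 0.10). SERPINA6, the corticosteroid carrier of plasma, was at 0.07 and 0.1 FPKM in MHCC-97H and 4.78 and 5.84 FPKM in MHCC-97L (-2.54 ± 0.10). A second liver gene of this set was NR1I2, the xenobiotic receptor that induces P450 genes, at 0.07 and 0.07 FPKM in MHCC-97H and 2.33 and 2.49 FPKM in MHCC-97L (-1.67 ± 0.09). PTP4A3, a phosphatase often linked to metastasis, was at 0.09 and 0.07 FPKM in MHCC-97H and 2.08 and 2.35 FPKM in MHCC-97L (-1.57 ± 0.09).

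On the linear scale the differences were largest for genes abundant in both lines. CAV1, the main coat protein of caveolae, was at 2490.4 and 2636 FPKM in MHCC-97H and 1097 and 1085 FPKM in MHCC-97L (1.23 ± 0.06). CAV2, its partner, was at 1682 and 1928 FPKM in MHCC-97H and 973 and 916 FPKM in MHCC-97L (0.93 ± 0.08). MET, the receptor of hepatocyte growth factor and their neighbour on chromosome 7, was at 815 and 897 FPKM in MHCC-97H and 522 and 504 FPKM in MHCC-97L (0.74 ± 0.07). These 3 neighbours were far above most genes in both lines and higher in MHCC-97H (adjusted p of 2.5e-07, 5.4e-06 and 1.1e-05). The genes on either side were looked up after these values were seen. TES, before the caveolin genes, was at 312 and 325 FPKM in MHCC-97H and 240.0 and 249 FPKM in MHCC-97L (0.38 ± 0.06). CAPZA2, after MET, was at 30.1 and 32.4 FPKM in MHCC-97H and 31.6 and 30.9 FPKM in MHCC-97L (0.00 ± 0.07) and did not pass the test (adjusted p = 0.99). ST7, the next gene examined, was at 10.9 and 12.3 FPKM in MHCC-97H and 8.45 and 9.04 FPKM in MHCC-97L (0.37 ± 0.09). Very high levels were thus seen for TES, CAV2, CAV1 and MET and not for CAPZA2 and ST7.

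Other abundant genes that were higher in MHCC-97H served protein folding, chromatin and glycolysis. HSPA8, the constitutive HSP70 chaperone, was at 886 and 1016 FPKM in MHCC-97H and 319 and 304 FPKM in MHCC-97L (1.60 ± 0.08). HMGA1, an architectural chromatin protein, was at 1129 and 1039.8 FPKM in MHCC-97H and 436 and 460.3 FPKM in MHCC-97L (1.27 ± 0.07). ENO1, the glycolytic enolase, was at 1641 and 1584 FPKM in MHCC-97H and 1019.6 and 1011 FPKM in MHCC-97L (0.67 ± 0.06). Ferritin and aldo-keto reductase genes were the abundant ones higher in MHCC-97L. FTL, the ferritin light chain, was at 14764 and 14035 FPKM in MHCC-97H and 22373 and 23525 FPKM in MHCC-97L (-0.67 ± 0.07). FTH1, the heavy chain, was at 5359.9 and 4973 FPKM in MHCC-97H and 6734 and 6829 FPKM in MHCC-97L (-0.39 ± 0.07). Quantile normalization set both ferritin differences to 0 (adjusted p = 1.0), since both genes then hold the same ranks in every control library. AKR1B10, a reductase often raised in liver cancer, was at 3061 and 3489.9 FPKM in MHCC-97H and 4868 and 4614 FPKM in MHCC-97L (-0.54 ± 0.08). AKR1B1, the related aldose reductase, was at 759 and 803 FPKM in MHCC-97H and 2279.9 and 2190.0 FPKM in MHCC-97L (-1.52 ± 0.06). MTRNR2L2, a nuclear gene copied from mitochondrial ribosomal RNA that can take mitochondrial reads, was at 2622 and 2829 FPKM in MHCC-97H and 4490.0 and 4272 FPKM in MHCC-97L (-0.69 ± 0.07).

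Liver genes were lower in MHCC-97H. Among 47 secreted hepatocyte proteins that passed the filter, of 92 with values, 35 were called higher in MHCC-97L and 9 higher in MHCC-97H, against 38.7% and 27.6% of all tested genes. At 2-fold the counts were 20 and 0 (23 and 3 with a pseudocount of 0.1 added to FPKM in place of 1). The filter took the mean over both lines, so members low in 1 line could pass through the other line alone. The counts of this and the other lists include such members. Without the filter, the 92 genes summed to 247 and 250 FPKM in MHCC-97H and 630 and 635.5 FPKM in MHCC-97L. The median difference of the 47 tested genes was -0.71 relative to all genes (-0.59 on its own scale once the length and GC trend was removed). Of 34 tested hepatocyte enzymes and transporters, 26 were called higher in MHCC-97L and 4 higher in MHCC-97H. The median was -0.65 relative to all genes (-0.55 on its own scale once the length and GC trend was removed). Of 22 cytochrome P450 genes, a family list that was not limited to liver genes, 14 were called higher in MHCC-97L and 3 higher in MHCC-97H. Their median was -0.37 relative to all genes.

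Albumin and apolipoprotein genes were among the lower ones, though low in both lines. ALB, encoding albumin, was at 1.78 and 1.95 FPKM in MHCC-97H and 13.4 and 14.2 FPKM in MHCC-97L (-2.37 ± 0.08) (adjusted p = 2.9e-08). APOA1, the main protein of high-density lipoprotein, was at 0.39 and 0.33 FPKM in MHCC-97H and 4.65 and 4.62 FPKM in MHCC-97L (-2.05 ± 0.09). Enzymes differed by as much. ASS1, of the urea cycle, was at 1.38 and 1.26 FPKM in MHCC-97H and 18.3 and 19.8 FPKM in MHCC-97L (-3.11 ± 0.08). BAAT, which conjugates bile acids, was at 0.93 and 1.21 FPKM in MHCC-97H and 17.1 and 16.4 FPKM in MHCC-97L (-3.11 ± 0.09). CYP24A1, the vitamin D hydroxylase, was at 3.32 and 2.94 FPKM in MHCC-97H and 55.1 and 54.97 FPKM in MHCC-97L (-3.76 ± 0.08). CYP24A1 was counted in the P450 list and not among the hepatocyte enzymes. UGT1A6 belongs to a cluster of glucuronosyltransferases that share their last exons, so its reads can come from its relatives. It was at 14.1 and 15.7 FPKM in MHCC-97H and 122 and 122 FPKM in MHCC-97L (-2.95 ± 0.07).

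The liver genes did not all move one way. HNF4A was at 14.6 and 14.6 FPKM in MHCC-97H and 13.9 and 13.4 FPKM in MHCC-97L (0.09 ± 0.07) and did not pass the test (adjusted p = 0.28); with median-of-ratios scaling it was called higher in MHCC-97H (0.23, adjusted p = 0.016). FGA, a fibrinogen chain, was at 9.81 and 10.9 FPKM in MHCC-97H and 5.05 and 5.77 FPKM in MHCC-97L (0.83 ± 0.09). FGB, another chain of the same protein, was at 2.78 and 3.08 FPKM in MHCC-97H and 3.04 and 3.50 FPKM in MHCC-97L (-0.12 ± 0.09) and did not pass the test (adjusted p = 0.29). ITIH2, a subunit of a hyaluronan-binding plasma inhibitor, and HAMP, the iron hormone hepcidin, were called higher in MHCC-97H. ITIH2 was at 76.6 and 79.2 FPKM in MHCC-97H and 45.4 and 43.8 FPKM in MHCC-97L (0.79 ± 0.07). HAMP was at 1.81 and 2.25 FPKM in MHCC-97H and 0.5 and 0.9 FPKM in MHCC-97L (0.84 ± 0.13). AFP, the fetal liver marker, was at 2.36 and 2.70 FPKM in MHCC-97H and 3.18 and 3.53 FPKM in MHCC-97L (-0.30 ± 0.09). Its call (adjusted p = 0.016) was lost with median-of-ratios scaling (adjusted p = 0.092).

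Transcription factors of the liver were split. Of 33 tested, 17 were called higher in MHCC-97L and 8 higher in MHCC-97H, with a median of -0.17 relative to all genes. These counts depended on the processing. They were 13 and 10 with median-of-ratios scaling, and 16 and 10 once the length and GC trend was removed. Removing that trend moved the group median, on its own scale, from -0.24 to -0.06. NR1H4, the bile acid receptor, was at 0.26 and 0.3 FPKM in MHCC-97H and 9.23 and 8.92 FPKM in MHCC-97L (-2.98 ± 0.09). SOX9, a bile duct and progenitor factor, was at 2.39 and 2.60 FPKM in MHCC-97H and 12.48 and 12.7 FPKM in MHCC-97L (-1.96 ± 0.08). Both were higher in MHCC-97L, whereas a pair of factors active in the embryonic liver were higher in MHCC-97H. TBX3 was at 16.6 and 16.2 FPKM in MHCC-97H and 3.24 and 3.02 FPKM in MHCC-97L (2.08 ± 0.08), and PROX1 was at 2.01 and 2.23 FPKM in MHCC-97H and 0.18 and 0.12 FPKM in MHCC-97L (1.44 ± 0.09).

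Promoters of ALB and APOH are shown because they carry letters read by HNF1 factors, which drive many plasma protein genes. The letters GTTAAT, a site of HNF1, were searched on both strands in the 250 bases before each gene start in RefSeq on GRCh38.p14. They were present in 6.22% of 27305 promoters of that length, in 3.38% of the 10134 promoters matched to tested genes, and in 8 of 34 (23.5%) matched to tested secreted hepatocyte proteins. A match describes the letters and shows no binding. Matches are in capitals; ALB is at chr4:73404037-73404286 on the plus strand and APOH at chr17:66229416-66229665 on the minus strand.
ALB: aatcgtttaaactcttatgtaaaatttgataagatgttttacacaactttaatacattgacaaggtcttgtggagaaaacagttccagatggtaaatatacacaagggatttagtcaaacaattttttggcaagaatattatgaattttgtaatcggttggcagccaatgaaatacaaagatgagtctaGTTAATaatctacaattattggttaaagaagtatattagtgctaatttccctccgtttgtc
APOH: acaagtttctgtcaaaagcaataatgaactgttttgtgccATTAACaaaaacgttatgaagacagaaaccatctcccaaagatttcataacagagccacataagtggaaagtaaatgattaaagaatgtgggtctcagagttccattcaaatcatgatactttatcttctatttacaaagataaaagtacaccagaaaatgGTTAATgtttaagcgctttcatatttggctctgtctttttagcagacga
The match in ALB began 61 bases before the start, and those in APOH 210 and 49 bases before it. APOH, encoding beta-2-glycoprotein I and picked with its values known, was at 25.3 and 26.7 FPKM in MHCC-97H and 45.8 and 46.6 FPKM in MHCC-97L (-0.81 ± 0.07), a smaller difference than that of ALB. The FOXA letters TGTTTAC were in 2.98% of all promoters and in 2 of the 34, and the HNF4 letters CAAAGTCCA in 0.293% and in 1 of the 34.

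Genes of mucosal and bile duct epithelium were also lower in MHCC-97H. Of 29 tested mucin, trefoil and intestinal genes, 20 were called higher in MHCC-97L and 4 higher in MHCC-97H, with a median of -0.54 relative to all genes. LGALS4, an intestinal galectin, was at 85.02 and 85.6 FPKM in MHCC-97H and 592 and 585 FPKM in MHCC-97L (-2.77 ± 0.06). CEACAM5, the carcinoembryonic antigen, was at 1.14 and 1.07 FPKM in MHCC-97H and 12.1 and 11.8 FPKM in MHCC-97L (-2.62 ± 0.08). TM4SF20, a transmembrane protein of intestine, was at 0.56 and 0.58 FPKM in MHCC-97H and 14.5 and 14.8 FPKM in MHCC-97L (-3.31 ± 0.08). AGR2, a disulfide isomerase needed for mucin folding, went the other way. It was at 474 and 544 FPKM in MHCC-97H and 142 and 138 FPKM in MHCC-97L (1.85 ± 0.08). Of the bile duct keratins, KRT7 was at 19.6 and 16.3 FPKM in MHCC-97H and 71.4 and 77.5 FPKM in MHCC-97L (-2.00 ± 0.09). KRT19 was at 362 and 316 FPKM in MHCC-97H and 333 and 353 FPKM in MHCC-97L (-0.02 ± 0.08) and did not pass the test (adjusted p = 0.84).

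**Figure D2:**
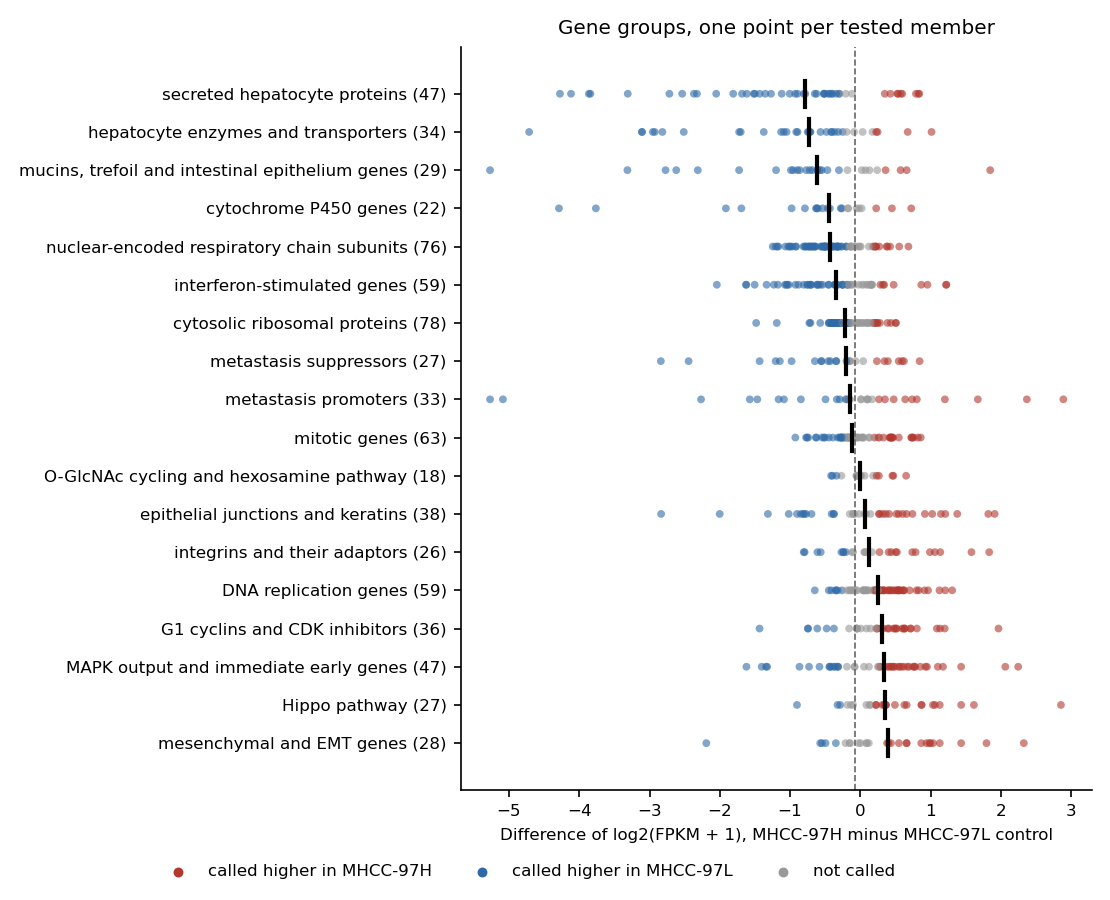
Difference of log2(FPKM + 1) between the control lines for each tested member of 18 gene groups, coloured by call, with a black bar at the group median and a dashed line at the median of all tested genes. The hepatocyte, mucosal and P450 groups have medians between -0.78 and -0.45, and the Hippo and mesenchymal groups medians of 0.36 and 0.39.

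Mesenchymal genes were more often higher in MHCC-97H. Of 28 tested (44 had values), 15 were called higher in MHCC-97H and 5 higher in MHCC-97L, with a median of 0.47 relative to all genes. The summed FPKM of the 44 went the other way, at 5349 and 5867 in MHCC-97H and 7106 and 6736 in MHCC-97L. CDH2, the cadherin of mesenchymal and neural cells and picked with its values known, was at 31.1 and 33.6 FPKM in MHCC-97H and 15.6 and 14.99 FPKM in MHCC-97L (1.03 ± 0.07). VIM, the intermediate filament used as the standard mesenchymal marker, was at 6.56 and 6.74 FPKM in MHCC-97H and 7.37 and 5.95 FPKM in MHCC-97L (0.00 ± 0.10) and did not pass the test (adjusted p = 0.97). The list was therefore not led by its best-known member. COL6A3, a collagen VI chain, was at 0.6 and 0.61 FPKM in MHCC-97H and 6.26 and 6.41 FPKM in MHCC-97L (-2.19 ± 0.09), higher in MHCC-97L. The 11 fibroblast and stellate markers with values summed to 9.37 and 12.6 FPKM in MHCC-97H and to 5.36 and 5.87 FPKM in MHCC-97L. In each line 9 of them were under 0.5 FPKM in both libraries. The part of these markers in this group's difference was not tested.

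Epithelial junction genes were divided between the lines. Of 38 tested junction and keratin genes, 17 were called higher in MHCC-97H and 13 higher in MHCC-97L. The epithelial cadherin CDH1 was low, at 2.79 and 2.93 FPKM in MHCC-97H and 1.77 and 1.52 FPKM in MHCC-97L (0.55 ± 0.09). PKP2, of the desmosome, was at 11.01 and 10.5 FPKM in MHCC-97H and 2.12 and 2.13 FPKM in MHCC-97L (1.91 ± 0.08). DSP, the desmosomal plaque protein, was at 39.8 and 42.8 FPKM in MHCC-97H and 15.2 and 15.3 FPKM in MHCC-97L (1.38 ± 0.07). All 3 were higher in MHCC-97H, as was the polarity gene PARD3, at 22.2 and 24.7 FPKM in MHCC-97H and 9.28 and 9.84 FPKM in MHCC-97L (1.21 ± 0.08). Members at the other end of the list belong to tight junctions. TJP3 was at 0.82 and 0.52 FPKM in MHCC-97H and 10.6 and 11.1 FPKM in MHCC-97L (-2.83 ± 0.10). CLDN7 was at 0.6 and 0.64 FPKM in MHCC-97H and 3.08 and 2.98 FPKM in MHCC-97L (-1.31 ± 0.09). CLDN3 was at 0.12 and 0.12 FPKM in MHCC-97H and 1.11 and 1.44 FPKM in MHCC-97L (-1.02 ± 0.10). EPCAM, an epithelial adhesion protein, was at no more than 0.21 FPKM in any control library and was not tested.

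Integrins and their adaptors were called in both directions. Of 26 tested, 12 were called higher in MHCC-97H and 8 higher in MHCC-97L, 4 and 0 at 2-fold (4 and 3 with a pseudocount of 0.1, which shrinks low genes less). At any size, median-of-ratios scaling gave 15 and 4. VCL, the focal adhesion protein vinculin, was at 66.9 and 69.8 FPKM in MHCC-97H and 19.2 and 17.7 FPKM in MHCC-97L (1.83 ± 0.07). ITGA2, a collagen receptor subunit, was at 6.62 and 7.83 FPKM in MHCC-97H and 1.73 and 1.75 FPKM in MHCC-97L (1.58 ± 0.10). ITGA6, a laminin receptor subunit, was at 34.3 and 38.6 FPKM in MHCC-97H and 16.2 and 15.8 FPKM in MHCC-97L (1.14 ± 0.08). A matrix gene of epithelial attachment was higher there too. COL17A1, a collagen of hemidesmosomes, was at 11.2 and 10.9 FPKM in MHCC-97H and 1.74 and 1.72 FPKM in MHCC-97L (2.14 ± 0.08). Over 27 tested laminins, collagens and glycoproteins, 13 were called in each direction.

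Genes named for promoting metastasis did not separate the lines by that name. Of 33 tested, 10 were called higher in MHCC-97H and 12 higher in MHCC-97L, shares near the 27.6% and 38.7% of all genes. The counts were 14 and 9 with median-of-ratios scaling and 13 and 11 once the length and GC trend was removed. At 2-fold they were 4 and 7, and the median was -0.07 relative to all genes. TSPAN8 and CD24 lay at its lower end. MMP2, a gelatinase, was at 0.63 and 0.59 FPKM in MHCC-97H and 6.54 and 6.96 FPKM in MHCC-97L (-2.27 ± 0.09). SPP1, or osteopontin, was at 151 and 155 FPKM in MHCC-97H and 343 and 344 FPKM in MHCC-97L (-1.16 ± 0.06). Among 33 tested matrix proteases and inhibitors, which include MMP2, 9 were called higher in MHCC-97H and 16 higher in MHCC-97L. MMP7, or matrilysin, was at 41.2 and 41.8 FPKM in MHCC-97H and 199 and 197 FPKM in MHCC-97L (-2.22 ± 0.06). Other proteases were higher in MHCC-97H. MMP14, a membrane-anchored collagenase, was at 16.9 and 15.5 FPKM in MHCC-97H and 5.45 and 5.73 FPKM in MHCC-97L (1.38 ± 0.08). ADAM9, a membrane-anchored protease, was at 45.8 and 51.6 FPKM in MHCC-97H and 18.4 and 17.5 FPKM in MHCC-97L (1.39 ± 0.08). PLAU, or urokinase, was at 17.8 and 19.9 FPKM in MHCC-97H and 7.31 and 6.64 FPKM in MHCC-97L (1.32 ± 0.09).

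Further metastasis promoters were higher in MHCC-97H. CD44, the hyaluronan receptor, was at 123 and 128 FPKM in MHCC-97H and 70.5 and 72.3 FPKM in MHCC-97L (0.80 ± 0.06). CXCL8, the chemokine interleukin-8, was at 4.01 and 4.68 FPKM in MHCC-97H and 0.59 and 0.76 FPKM in MHCC-97L (1.67 ± 0.10). HMGA2, a chromatin protein of embryonic cells, was at 19.4 and 20.9 FPKM in MHCC-97H and 8.17 and 8.18 FPKM in MHCC-97L (1.20 ± 0.08). BMI1, a Polycomb protein that shares reads with a read-through transcript, was at 12.8 and 12.4 FPKM in MHCC-97H and 1.07 and 2.35 FPKM in MHCC-97L (2.37 ± 0.18), with unequal libraries in MHCC-97L. CXCR4, the chemokine receptor, was at most 0.03 FPKM and MMP9 was listed at 0 in the control libraries.

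Metastasis suppressors were called higher in MHCC-97L in 14 of 27 tested genes and higher in MHCC-97H in 7. Those that reached 2-fold were 5 and 0, and 7 and 2 with a pseudocount of 0.1. RARRES2, the chemoattractant chemerin, was at 4.38 and 3.27 FPKM in MHCC-97H and 31.9 and 34.8 FPKM in MHCC-97L (-2.84 ± 0.11). NDRG2 was at 0.47 and 0.18 FPKM in MHCC-97H and 6.09 and 6.24 FPKM in MHCC-97L (-2.44 ± 0.11). CD82, a tetraspanin, was at 1.19 and 1.45 FPKM in MHCC-97H and 3.13 and 4.04 FPKM in MHCC-97L (-0.98 ± 0.11). NDRG1, of the same family as NDRG2, was higher in MHCC-97H, at 42.3 and 41.4 FPKM in MHCC-97H and 22.4 and 23.3 FPKM in MHCC-97L (0.84 ± 0.07). NME1, the first gene described as a metastasis suppressor, was at 340.2 and 347 FPKM in MHCC-97H and 364 and 356 FPKM in MHCC-97L (-0.07 ± 0.06) and did not pass the test (adjusted p = 0.35).

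The epidermal growth factor receptor and a pair of its ligands at the upper end of their list were higher in MHCC-97H. TGFA was at 8.38 and 8.82 FPKM in MHCC-97H and 0.91 and 1.14 FPKM in MHCC-97L (2.25 ± 0.09). EREG was at 22.9 and 26.8 FPKM in MHCC-97H and 5.55 and 4.81 FPKM in MHCC-97L (2.06 ± 0.10). The receptor EGFR was at 11.6 and 12.1 FPKM in MHCC-97H and 3.95 and 3.97 FPKM in MHCC-97L (1.37 ± 0.08). Its relative ERBB3 went the other way, at 5.57 and 5.57 FPKM in MHCC-97H and 24.1 and 23.03 FPKM in MHCC-97L (-1.90 ± 0.07). Over 39 tested growth factor receptors and ligands, 15 were called higher in MHCC-97H and 16 higher in MHCC-97L (17 and 14 with median-of-ratios scaling). Among 47 tested outputs of the MAPK pathway and immediate early genes, 26 were called higher in MHCC-97H and 14 higher in MHCC-97L, with a median of 0.41 relative to all genes. SPRY2, a feedback inhibitor of receptor kinases, was at 6.77 and 7.58 FPKM in MHCC-97H and 2.58 and 2.64 FPKM in MHCC-97L (1.18 ± 0.09). EMP1, a membrane protein, was at 57.1 and 64.9 FPKM in MHCC-97H and 22.5 and 21.3 FPKM in MHCC-97L (1.44 ± 0.08). At the other end of that list were 3 immediate early transcription factors. FOS was at 5.71 and 5.16 FPKM in MHCC-97H and 15.4 and 16.6 FPKM in MHCC-97L (-1.40 ± 0.08). ATF3 was at 4.22 and 4.50 FPKM in MHCC-97H and 15.8 and 15.2 FPKM in MHCC-97L (-1.62 ± 0.08). NR4A1 was at 3.20 and 2.91 FPKM in MHCC-97H and 8.76 and 9.58 FPKM in MHCC-97L (-1.33 ± 0.09).

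At the lower end of the growth factor list were 3 binding proteins of insulin-like growth factors. IGFBP3 was at 0.93 and 0.98 FPKM in MHCC-97H and 24.5 and 25.3 FPKM in MHCC-97L (-3.73 ± 0.08). IGFBP2 was at 54.5 and 46.6 FPKM in MHCC-97H and 259.6 and 291 FPKM in MHCC-97L (-2.42 ± 0.09). IGFBP5 was at 0.03 and 0.02 FPKM in MHCC-97H and 2.19 and 2.17 FPKM in MHCC-97L (-1.63 ± 0.09). IGFBP4, looked up with these values known, went the other way, at 251 and 233 FPKM in MHCC-97H and 131 and 133 FPKM in MHCC-97L (0.87 ± 0.07). In the TGF-beta and BMP pathway 6 of 42 tested genes were at least 2-fold higher in MHCC-97H and 0 in MHCC-97L, against 2.38% and 6.0% of all genes; a pseudocount of 0.1 gave 6 and 3. TGFBR2, the type II receptor, was at 38.5 and 43.3 FPKM in MHCC-97H and 12.49 and 11.7 FPKM in MHCC-97L (1.68 ± 0.08). LTBP1, which holds the latent ligand, was at 14.96 and 14.7 FPKM in MHCC-97H and 3.48 and 3.28 FPKM in MHCC-97L (1.85 ± 0.08). TGFBI, a matrix protein induced by the pathway, was at 96.5 and 99.00 FPKM in MHCC-97H and 38.2 and 36.7 FPKM in MHCC-97L (1.36 ± 0.07). At any size, 11 of the 42 were called higher in MHCC-97H and 15 higher in MHCC-97L, and 16 and 12 with median-of-ratios scaling. In the Wnt pathway 11 of 31 were called higher in MHCC-97H and 13 higher in MHCC-97L (14 and 11 with median-of-ratios scaling). TCF7L1, a repressor at Wnt targets, was at 0.34 and 0.37 FPKM in MHCC-97H and 7.38 and 8.52 FPKM in MHCC-97L (-2.72 ± 0.10). WNT5A, a ligand of the non-canonical branch, was at 5.01 and 5.46 FPKM in MHCC-97H and 16.7 and 15.8 FPKM in MHCC-97L (-1.47 ± 0.08).

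Hippo pathway genes were mostly higher in MHCC-97H. Of 27 tested members (32 had values), 18 were called higher in MHCC-97H and 3 higher in MHCC-97L, 6 and 0 at 2-fold. Their median was 0.43 relative to all genes (0.28 on its own scale once the length and GC trend was removed). Targets of YAP1 besides ANKRD1 were among them. The targets CYR61 and CTGF were also counted in the mesenchymal group, so the groups are not separate results. CYR61, a matricellular protein, was at 10.7 and 10.1 FPKM in MHCC-97H and 3.01 and 3.42 FPKM in MHCC-97L (1.44 ± 0.09) (adjusted p = 7.6e-07). CTGF, its close relative, was at 16.2 and 15.5 FPKM in MHCC-97H and 6.58 and 6.79 FPKM in MHCC-97L (1.13 ± 0.08) (adjusted p = 1.5e-06). AJUBA, a LIM protein that inhibits the Hippo kinases, was at 15.8 and 18.1 FPKM in MHCC-97H and 5.42 and 4.30 FPKM in MHCC-97L (1.62 ± 0.11). VGLL4, which competes with YAP1 for TEAD proteins, was higher in MHCC-97L, at 15.04 and 15.5 FPKM in MHCC-97H and 29.3 and 29.5 FPKM in MHCC-97L (-0.90 ± 0.07). The following were chosen after their values were seen. The effector YAP1 was at 18.5 and 20.8 FPKM in MHCC-97H and 10.3 and 10.3 FPKM in MHCC-97L (0.87 ± 0.08). Its DNA-binding partner TEAD1 was at 8.30 and 8.98 FPKM in MHCC-97H and 3.64 and 3.59 FPKM in MHCC-97L (1.06 ± 0.08). AMOTL2, an angiomotin, was at 18.6 and 18.5 FPKM in MHCC-97H and 8.47 and 8.61 FPKM in MHCC-97L (1.03 ± 0.07). All 3 were higher in MHCC-97H. THBS1, a matricellular protein of the matrix list that is also used as a readout of YAP1, was at 21.9 and 22.4 FPKM in MHCC-97H and 5.61 and 5.25 FPKM in MHCC-97L (1.85 ± 0.08).

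Promoters of ANKRD1 and CTGF are shown because both genes are known to be driven through TEAD sites close to their start. The TEAD letters GGAATG, in capitals, were searched on both strands in the same windows. They were present in 11.9% of all promoters, in 9.47% of those of tested genes and in 5 of 21 (23.8%) of the matched Hippo promoters. The AP-1 letters TGANTCA were in 6.6% of all promoters and in 3 of the 21. ANKRD1 is at chr10:90921088-90921337 and CTGF at chr6:131951373-131951622, both on the minus strand of GRCh38.p14.
ANKRD1: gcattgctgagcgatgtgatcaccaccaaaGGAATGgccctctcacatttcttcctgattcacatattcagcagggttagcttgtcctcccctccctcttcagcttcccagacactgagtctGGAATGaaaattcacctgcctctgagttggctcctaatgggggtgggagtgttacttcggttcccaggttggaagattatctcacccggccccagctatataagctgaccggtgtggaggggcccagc
CTGF: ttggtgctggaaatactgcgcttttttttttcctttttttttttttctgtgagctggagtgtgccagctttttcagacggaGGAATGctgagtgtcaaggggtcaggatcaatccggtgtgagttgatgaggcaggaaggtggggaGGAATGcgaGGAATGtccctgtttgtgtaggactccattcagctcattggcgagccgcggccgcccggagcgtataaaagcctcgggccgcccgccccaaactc
ANKRD1 had matches that began 220 and 128 bases before the start, and CTGF had 3 that began 169, 104 and 95 bases before it.

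Interferon-stimulated genes were more often lower in MHCC-97H. Of 59 tested members (77 had values), 35 were called higher in MHCC-97L and 8 higher in MHCC-97H, 11 and 2 at 2-fold, with a median of -0.26 relative to all genes. IFITM2, a membrane protein that blocks virus entry, was at 8.30 and 6.23 FPKM in MHCC-97H and 32.6 and 32.9 FPKM in MHCC-97L (-2.04 ± 0.11). IFI6 was at 1.37 and 1.18 FPKM in MHCC-97H and 5.26 and 6.83 FPKM in MHCC-97L (-1.62 ± 0.12). IFI27 was at 1.52 and 0.83 FPKM in MHCC-97H and 5.37 and 4.82 FPKM in MHCC-97L (-1.50 ± 0.14). These are small proteins induced by type I interferon. ISG15, a ubiquitin-like modifier picked with its values known, was at 21.96 and 20.1 FPKM in MHCC-97H and 51.8 and 49.6 FPKM in MHCC-97L (-1.23 ± 0.07). GBP1, a guanylate-binding protein, and PLSCR1, a scramblase, were higher in MHCC-97H. GBP1 was at 2.98 and 3.06 FPKM in MHCC-97H and 0.82 and 0.63 FPKM in MHCC-97L (1.22 ± 0.09). PLSCR1 was at 28.03 and 25.8 FPKM in MHCC-97H and 11.9 and 10.1 FPKM in MHCC-97L (1.22 ± 0.09).

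Promoters of IFI6 and ISG15 are shown for the interferon response letters, GAAA, any 2 bases and GAAA again, in capitals, searched on both strands, where neighbouring matches can overlap. They were in 3.07% of all promoters, 2.25% of those of tested genes and 20 of 45 (44.4%) of the matched interferon-stimulated promoters. IFI6 is at chr1:27672193-27672442 on the minus strand and ISG15 at chr1:1013247-1013496 on the plus strand of GRCh38.p14.
IFI6: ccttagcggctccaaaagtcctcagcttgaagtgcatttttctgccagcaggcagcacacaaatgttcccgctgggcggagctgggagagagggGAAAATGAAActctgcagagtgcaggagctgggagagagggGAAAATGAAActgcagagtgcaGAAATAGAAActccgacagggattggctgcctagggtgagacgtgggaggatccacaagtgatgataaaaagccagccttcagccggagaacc
ISG15: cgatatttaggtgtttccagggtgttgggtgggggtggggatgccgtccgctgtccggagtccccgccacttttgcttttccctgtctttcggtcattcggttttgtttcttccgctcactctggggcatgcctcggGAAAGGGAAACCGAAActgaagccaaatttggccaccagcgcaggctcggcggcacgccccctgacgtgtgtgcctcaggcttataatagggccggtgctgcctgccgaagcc
IFI6 had 3 matches that began 156, 115 and 93 bases before the start, and ISG15 had overlapping ones that began 113 and 107 bases before it.

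Other immune genes were found at both ends. PSMB9, an immunoproteasome subunit, was at 0.79 and 0.59 FPKM in MHCC-97H and 4.06 and 2.84 FPKM in MHCC-97L (-1.39 ± 0.13). PSMB8, another, was at 4.92 and 5.49 FPKM in MHCC-97H and 14.7 and 12.6 FPKM in MHCC-97L (-1.24 ± 0.09). LCN2, an iron-binding lipocalin of inflammation, was at 7.95 and 7.81 FPKM in MHCC-97H and 61.7 and 65.96 FPKM in MHCC-97L (-2.87 ± 0.07). PYCARD, the inflammasome adaptor, was at 51.5 and 38.5 FPKM in MHCC-97H and 128 and 142 FPKM in MHCC-97L (-1.57 ± 0.12). Those 4 were higher in MHCC-97L, whereas feedback inhibitors of cytokine signalling and a stress ligand were higher in MHCC-97H. SOCS2 was at 6.32 and 6.02 FPKM in MHCC-97H and 0.56 and 0.45 FPKM in MHCC-97L (2.25 ± 0.09). SOCS3 was at 14.3 and 12.8 FPKM in MHCC-97H and 4.65 and 4.35 FPKM in MHCC-97L (1.40 ± 0.09). MICB, which natural killer cells recognise, was at 13.04 and 12.3 FPKM in MHCC-97H and 4.19 and 3.99 FPKM in MHCC-97L (1.42 ± 0.08). Of 40 tested NF-kappaB targets, chemokines and cytokines, 10 were called higher in MHCC-97H and 18 higher in MHCC-97L. The 12 leukocyte markers with values summed to 80.7 and 82.6 FPKM in MHCC-97H and to 70.1 and 71.1 FPKM in MHCC-97L, most of it CD68, and their part in these differences was not tested.

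Genes of cell cycle entry were higher in MHCC-97H, and mitotic genes were divided. Of 59 tested DNA replication genes, 33 were called higher in MHCC-97H and 7 higher in MHCC-97L, with a median of 0.33 relative to all genes. Of 36 G1 cyclins and inhibitors, 21 were called higher in MHCC-97H and 6 higher in MHCC-97L, with a median of 0.38. Of 63 mitotic genes, 17 were called higher in MHCC-97H and 21 higher in MHCC-97L (20 and 12 with median-of-ratios scaling), 0 of them by 2-fold. The main counts are 27.0% and 33.3% of the list, near the 27.6% and 38.7% of all tested genes. MCM10, a replication initiation factor, was at 13.4 and 14.5 FPKM in MHCC-97H and 5.48 and 5.47 FPKM in MHCC-97L (1.21 ± 0.08). GINS3, a subunit of the replicative helicase, was at 18.97 and 20.9 FPKM in MHCC-97H and 7.44 and 7.43 FPKM in MHCC-97L (1.31 ± 0.08). E2F7, a repressor of the same programme, was at 5.76 and 6.77 FPKM in MHCC-97H and 2.31 and 2.00 FPKM in MHCC-97L (1.20 ± 0.10). The inhibitor CDKN1A, which halts entry into replication, was also higher in MHCC-97H, at 54.95 and 53.5 FPKM in MHCC-97H and 13.04 and 13.2 FPKM in MHCC-97L (1.97 ± 0.07). Of 36 tested p53 targets 8 were called higher in MHCC-97H and 15 higher in MHCC-97L (14 and 13 with median-of-ratios scaling). PHLDA3, an inhibitor of AKT, was at 0.13 and 0.23 FPKM in MHCC-97H and 5.19 and 5.40 FPKM in MHCC-97L (-2.42 ± 0.09). BBC3, which promotes cell death, was at 4.08 and 3.38 FPKM in MHCC-97H and 10.7 and 10.6 FPKM in MHCC-97L (-1.31 ± 0.09). MKI67, the proliferation marker, was at 28.3 and 29.9 FPKM in MHCC-97H and 16.3 and 15.7 FPKM in MHCC-97L (0.82 ± 0.07), and ASPM, a spindle pole protein, was at 2.86 and 3.33 FPKM in MHCC-97H and 6.66 and 6.86 FPKM in MHCC-97L (-0.92 ± 0.09), in opposite directions.

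Respiratory chain genes were lower in MHCC-97H. Of 76 tested nuclear-encoded subunits, 54 were called higher in MHCC-97L and 10 higher in MHCC-97H, with a median of -0.36 relative to all genes. These transcripts are short, with a median length of 1432 bases. Once the length and GC trend was removed the counts were 44 and 17. The group median, on its own scale, then went from -0.43 to -0.21. COX5B, of cytochrome c oxidase, was at 197 and 185 FPKM in MHCC-97H and 430.5 and 453 FPKM in MHCC-97L (-1.21 ± 0.07). COX6C, of the same complex, was at 117 and 126 FPKM in MHCC-97H and 297 and 259 FPKM in MHCC-97L (-1.18 ± 0.08). The catalytic ATP synthase subunit ATP5F1B was higher in MHCC-97H, at 492 and 504 FPKM in MHCC-97H and 319 and 300.1 FPKM in MHCC-97L (0.69 ± 0.06). Of 78 cytosolic ribosomal proteins, 45 were called higher in MHCC-97L and 11 higher in MHCC-97H, but 22 and 19 with median-of-ratios scaling. Those that reached 2-fold were RPL32 and RPS7. RPL32 was at 298 and 317 FPKM in MHCC-97H and 848 and 875 FPKM in MHCC-97L (-1.48 ± 0.06). RPS7 was at 263 and 275 FPKM in MHCC-97H and 617 and 612 FPKM in MHCC-97L (-1.19 ± 0.06).

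Other metabolic lists were divided. Of 31 tested glycolysis and pentose phosphate genes, 13 were called higher in MHCC-97H and 10 higher in MHCC-97L. These counts depended on the processing: they were 17 and 6 with median-of-ratios scaling, and the same once the length and GC trend was removed. PGAM1, of lower glycolysis, was at 245 and 245 FPKM in MHCC-97H and 86.8 and 86.7 FPKM in MHCC-97L (1.49 ± 0.06). PGK1, of the same part of the pathway, was at 437 and 475 FPKM in MHCC-97H and 191 and 185 FPKM in MHCC-97L (1.27 ± 0.07). Both were higher in MHCC-97H, whereas SLC16A3, which exports lactate, was at 37.5 and 32.4 FPKM in MHCC-97H and 93.1 and 98.7 FPKM in MHCC-97L (-1.44 ± 0.08). Of 41 tested genes of fatty acid synthesis and lipid droplets 13 were called higher in MHCC-97H and 20 higher in MHCC-97L. CIDEC, which enlarges lipid droplets, was at 16.1 and 11.2 FPKM in MHCC-97H and 111 and 116 FPKM in MHCC-97L (-2.98 ± 0.13). Of 34 tested cholesterol genes 9 and 16 were called, and 15 and 11 with median-of-ratios scaling. ABCG1, a cholesterol exporter, was at 0.12 and 0.09 FPKM in MHCC-97H and 4.57 and 4.61 FPKM in MHCC-97L (-2.34 ± 0.09). HMOX1, which degrades heme, was at 149 and 141 FPKM in MHCC-97H and 538 and 524 FPKM in MHCC-97L (-1.87 ± 0.06), higher in MHCC-97L together with the ferritins.

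Genes of O-GlcNAc cycling differed little. Of 18 tested, 5 were called higher in MHCC-97H and 3 higher in MHCC-97L, 0 by 2-fold. OGT itself was at 32.5 and 34.2 FPKM in MHCC-97H and 45.7 and 43.9 FPKM in MHCC-97L (-0.42 ± 0.07), lower in MHCC-97H (adjusted p = 0.00048). OGA, the enzyme that removes the sugar, was at 12.2 and 13.9 FPKM in MHCC-97H and 10.8 and 11.1 FPKM in MHCC-97L (0.23 ± 0.08) (adjusted p = 0.033). That call was lost once the length and GC trend was removed (adjusted p = 0.15), and when any control library but the first of MHCC-97H was left out (adjusted p from 0.12 to 0.21). HCFC1, a chromatin cofactor that OGT cleaves, was at 32.98 and 28.5 FPKM in MHCC-97H and 18.8 and 19.5 FPKM in MHCC-97L (0.65 ± 0.08). ZNF263, the zinc-finger protein named in the study's title, was at 13.7 and 15.4 FPKM in MHCC-97H and 14.96 and 14.2 FPKM in MHCC-97L (0.00 ± 0.08) and did not pass the test (adjusted p = 0.98).

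Developmental transcription factors lay at both ends, and clusters were not compared as such. HOXC9 was at 2.86 and 2.99 FPKM in MHCC-97H and 12.7 and 12.49 FPKM in MHCC-97L (-1.79 ± 0.08). HOXC6 was at 0.88 and 0.67 FPKM in MHCC-97H and 3.41 and 4.74 FPKM in MHCC-97L (-1.51 ± 0.13). HOXC10 was at 0.41 and 0.18 FPKM in MHCC-97H and 1.85 and 1.81 FPKM in MHCC-97L (-1.13 ± 0.11). These HOXC genes are neighbours and were higher in MHCC-97L, whereas HOXA11 and GATA2 were higher in MHCC-97H. HOXA11 was at 7.75 and 6.84 FPKM in MHCC-97H and 1.19 and 1.22 FPKM in MHCC-97L (1.91 ± 0.09). GATA2 was at 27.01 and 24.1 FPKM in MHCC-97H and 6.30 and 7.26 FPKM in MHCC-97L (1.77 ± 0.09). Of 44 tested developmental factors, 16 were called higher in MHCC-97H and 20 higher in MHCC-97L, with a median of 0.0003 relative to all genes.

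Neighbouring genes often differed in the same direction. Tested genes were put in chromosomal order, the median over 25 neighbours was taken relative to all genes, and windows with an absolute median of at least 0.4 were joined into runs. This gave 45 runs with 2633 of the 12382 genes placed on a chromosome (21.3%), which held 369 of the 1047 genes called at 2-fold (35.2%). Of the runs 18 were higher in MHCC-97H and 27 higher in MHCC-97L, and 16 had an absolute median of at least 0.4 once the length and GC trend was removed; 3 of these had been below it before, since the threshold was set on windows. The runs were found in these data and carry no test, and DNA was not measured. Chromosome 10 was higher in MHCC-97H over most of its length. Of its 472 genes 298 were called higher in MHCC-97H and 62 higher in MHCC-97L, with a median of 0.48 relative to all genes. Chromosome 6 followed, with a median of 0.27 over 621 genes.

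A step lay at one end of chromosome 3. From TRNT1, the first tested gene of the chromosome, to LSM3, an end point read from the values, 54 of 56 genes were called higher in MHCC-97L and 0 higher in MHCC-97H. Their median was -1.12 relative to all genes, with quartiles of -1.32 and -0.93, which makes MHCC-97L 2.18-fold higher. Over the next 13 genes, up to GALNT15, 5 were called in each direction and the median was 0.07. The stretch held genes of unrelated function. EDEM1, which sends misfolded glycoproteins for degradation, was at 6.23 and 6.62 FPKM in MHCC-97H and 32.3 and 30.5 FPKM in MHCC-97L (-2.13 ± 0.08). VHL, the tumour suppressor of the oxygen-sensing pathway, was at 12.2 and 11.2 FPKM in MHCC-97H and 29.5 and 30.8 FPKM in MHCC-97L (-1.30 ± 0.08). XPC, a DNA repair protein, was at 5.66 and 5.78 FPKM in MHCC-97H and 15.6 and 14.9 FPKM in MHCC-97L (-1.27 ± 0.08). SEC13, a coat protein of secretory vesicles, was at 83.00 and 80.1 FPKM in MHCC-97H and 187 and 186 FPKM in MHCC-97L (-1.19 ± 0.06). CIDEC, RPL32 and VGLL4, described above with their groups, lie in this stretch.

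**Figure D3:**
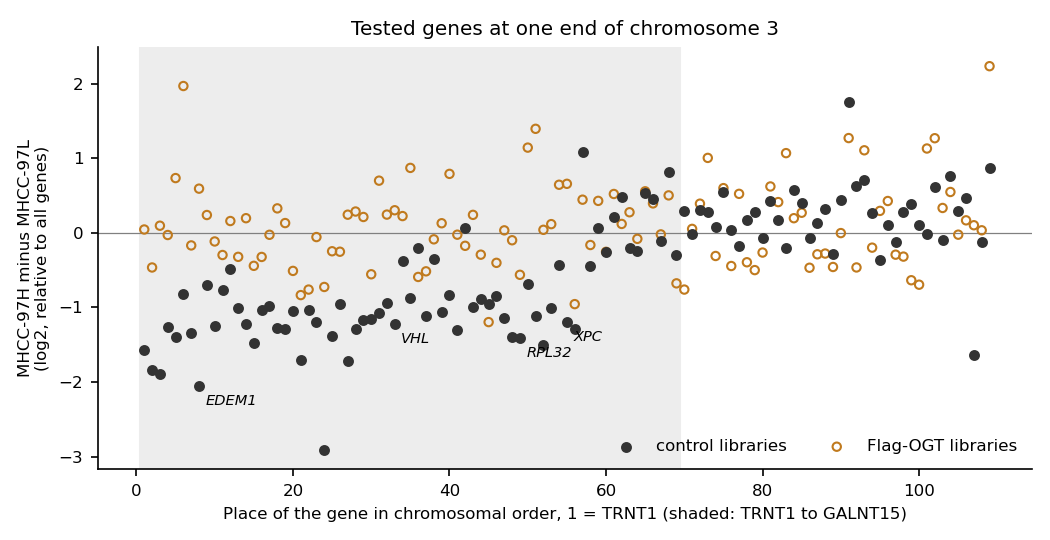
Difference between the lines for each tested gene at one end of chromosome 3, in chromosomal order from TRNT1, relative to the median of all genes, in control libraries (filled) and Flag-OGT libraries (open). In the control libraries 55 of the first 56 genes lie below 0, with a median of -1.12, and the next 13 have a median of 0.07; the Flag-OGT medians are 0.01 and 0.28.

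The following runs had an absolute median of at least 0.4 before and after the length and GC trend was removed. On chromosome 2, FAM110C to TMEM214 had 62 of 79 genes called higher in MHCC-97L, with RPS7, SDC1 and RHOB among its abundant members. On chromosome 5, DUSP1 to TRIM52 had 55 of 68 called higher in MHCC-97L, among them RACK1 and SQSTM1. On chromosome 20, C20orf96 to SMOX had 38 of 46 called higher in MHCC-97L and 0 higher in MHCC-97H. In the other direction, MAML3 to FRG1 on chromosome 4 had 64 of 93 called higher in MHCC-97H, with ANXA10, PALLD and HPGD among them. On chromosome 16, ENKD1 to GALNS had 86 of 137 called higher in MHCC-97H. On chromosome 10, 139 of 210 genes from ZMYND11 to PPP3CB and 85 of 124 from PDZD7 to JAKMIP3 were called higher in MHCC-97H. BMI1, DNAJC12, MCM10 and ITIH2 lie in the first of these and COL17A1, MKI67 and OGA in the second. The run between them, CAMK2G to SEMA4G, had 69 of 114 called higher in MHCC-97H and holds ANKRD1, VCL, PLAU and PGAM1; its median fell to 0.36 with the trend removed. The part that position has in the group differences was not tested.

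**Figure D4:**
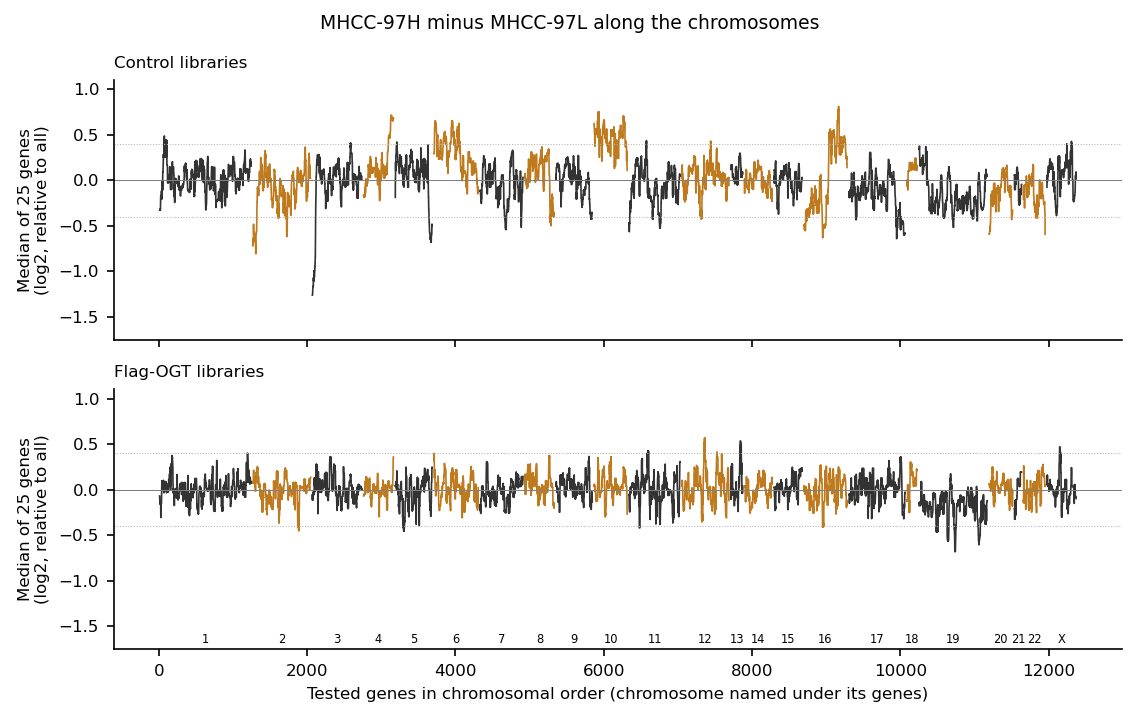
Running median over 25 neighbouring tested genes of the difference between the lines, relative to all genes, along the chromosomes in control libraries (top) and Flag-OGT libraries (bottom), with dotted lines at 0.4 in either direction. The control track leaves this band over much of chromosome 10 and at one end of chromosomes 2, 3 and 4; of the 45 control runs 0 have a median of at least 0.4 in the Flag-OGT libraries.

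The same difference between the lines was then taken in the Flag-OGT libraries, which share no library with the controls. There 31.0% of the 12496 genes were called higher in MHCC-97H and 36.6% higher in MHCC-97L. Of the 297 genes at least 2-fold higher in MHCC-97H in the controls, 163 (54.9%) were called in the same direction with Flag-OGT. Another 31 (10.4%) were called in the opposite direction and 103 in neither, and 67 of the 297 were under 0.5 FPKM in all Flag-OGT libraries. Of the 750 genes at least 2-fold higher in MHCC-97L, the counts were 256 (34.1%), 182 (24.3%) and 312. Of the 750, 178 were under 0.5 FPKM in all Flag-OGT libraries. The 34.1% called in the same direction lay below the 36.6% of all tested genes called higher in MHCC-97L. The line difference itself differed between control and Flag-OGT libraries for 7820 genes (62.6%) in limma, including 271 of the 297 and 697 of the 750. Since the Flag-OGT libraries also differed from the controls in their hepatocyte markers, an effect of Flag-OGT and any other difference between these sets of libraries cannot be told apart.

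Of the 297 genes, 44 were also at least 2-fold higher in MHCC-97H with Flag-OGT and 7 at least 2-fold lower. Of the 750, 46 kept their direction at 2-fold and 41 turned. Values from here on are from the Flag-OGT libraries, for genes picked with their values known. CDKN1A was at 46.1 and 45.9 FPKM in MHCC-97H and 13.7 and 13.1 FPKM in MHCC-97L (1.71 ± 0.05). VCL was at 34.04 and 33.8 FPKM in MHCC-97H and 15.8 and 16.4 FPKM in MHCC-97L (1.03 ± 0.06). TGFBR2 was at 3.29 and 3.63 FPKM in MHCC-97H and 0.72 and 1.08 FPKM in MHCC-97L (1.24 ± 0.10). AJUBA, HSPA8 and HMGA1 were also higher in MHCC-97H in both. AJUBA was at 8.14 and 7.74 FPKM in MHCC-97H and 2.47 and 2.80 FPKM in MHCC-97L (1.30 ± 0.10). HSPA8 was at 567 and 561 FPKM in MHCC-97H and 141 and 139 FPKM in MHCC-97L (2.00 ± 0.06). HMGA1 was at 477 and 492 FPKM in MHCC-97H and 178 and 157 FPKM in MHCC-97L (1.53 ± 0.07). COX6C and CCL5, a chemokine, were higher in MHCC-97L in both. COX6C was at 78.5 and 77.6 FPKM in MHCC-97H and 177 and 195 FPKM in MHCC-97L (-1.24 ± 0.07). CCL5 was at 5.26 and 4.50 FPKM in MHCC-97H and 20.6 and 20.3 FPKM in MHCC-97L (-1.87 ± 0.17). Among genes that turned, MMP2, ASS1 and DDIT4 were higher in MHCC-97L among the controls and higher in MHCC-97H with Flag-OGT. MMP2 was at 6.74 and 6.07 FPKM in MHCC-97H and 1.50 and 1.17 FPKM in MHCC-97L (1.67 ± 0.09). ASS1 was at 185 and 184 FPKM in MHCC-97H and 62.2 and 63.97 FPKM in MHCC-97L (1.54 ± 0.06). DDIT4, an inhibitor of mTORC1 signalling, was at 86.97 and 84.3 FPKM in MHCC-97H and 16.3 and 16.5 FPKM in MHCC-97L (2.32 ± 0.06). TUBB3, a neuronal tubulin, turned from higher to lower in MHCC-97H, at 3.77 and 4.58 FPKM in MHCC-97H and 11.7 and 10.2 FPKM in MHCC-97L (-1.21 ± 0.10). Genes that led the control comparison could be near 0 with Flag-OGT, such as TSPAN8, listed at 0 in all 4 libraries, and ANXA10, at 0.08 FPKM or less.

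**Figure D5:**
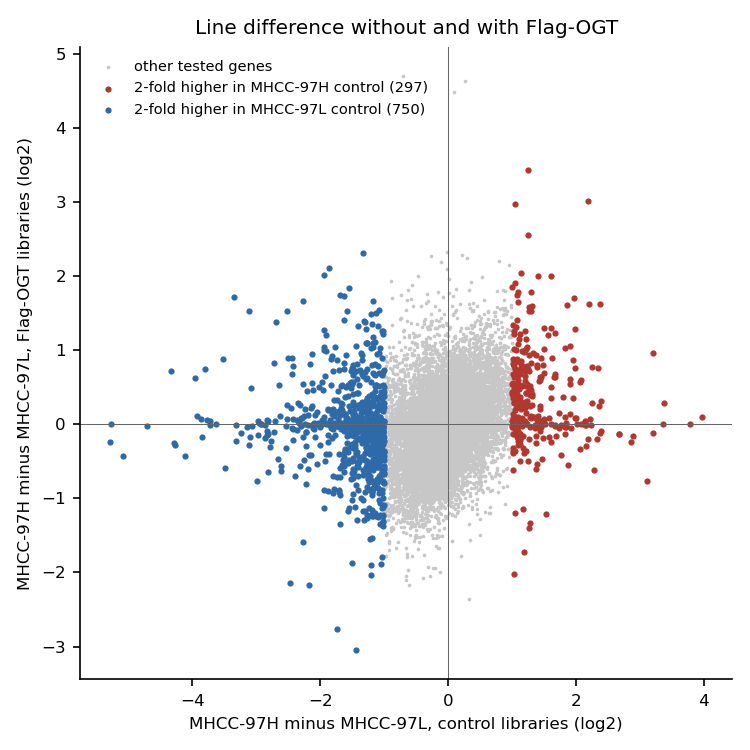
Difference between the lines in the Flag-OGT libraries against that in the control libraries, on the log2(FPKM + 1) scale, with 1 point per tested gene and the genes called at 2-fold in the controls in colour. Of the coloured genes 163 of 297 (54.9%) and 256 of 750 (34.1%) were called in the same direction with Flag-OGT, and many lie near 0 on the Flag-OGT axis. Of all tested genes, 31.0% and 36.6% were called higher in MHCC-97H and in MHCC-97L with Flag-OGT.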

How the data were processed

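RNA-seq of 4 control and 4 Flag-OGT libraries (2 per line and state) was used as FPKM values that the authors deposited, 1 per gene and library. The submitters' processing notes name HISAT2 2.1.0, Bowtie2, RSEM 1.2.4, DESeq2 1.18.1 and hg19; the notes do not say which tool produced the FPKM. The read depth is unknown. Of 18928 listed features, 26 whose symbol is a date were left out, and gene names were matched to reference tables for all but 329.

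Genes with a mean of at least 0.5 FPKM over the 4 control libraries were tested on log2(FPKM + 1) with limma 3.58.1 (R 4.3.3; eBayes with a mean-variance trend) and Benjamini-Hochberg adjustment over all of them, two-sided; this leaves few degrees of freedom. The interaction was fitted on all 8 libraries. On simulated data for the control comparison with 12496 genes, 100% of 50 changed genes were recovered at each size (0.585, 1, 2 and 3 on the log2 scale), and 7 of 207 calls were false. Changes were placed only in genes with a mean above 1 on the log2(FPKM + 1) scale. The noise was normal, with the spread between libraries of a line. Recovery of lower genes and spread between cultures were therefore not covered, and far fewer genes were changed than were called in the data. The members and gene lists were chosen with earlier results of these data known. Lists are described by counts and medians, with no set test. Genes were named only where called and where the libraries of the lines did not overlap. The set of markers and the other genes looked up were exempt. Named genes were those with the 12 highest and 12 lowest differences, the 5 largest FPKM differences in each direction, genes on in 1 line, up to 4 members at either end of each list past 0.585, up to 6 abundant members of each run, and a set of markers; others are marked where named, besides CD68 and KRT19, which are in the marker lists. Length and GC, from a reference annotation, were available for 98.3% of tested genes. Promoters are from RefSeq. Alternatives were other pseudocounts, filters, scalings, fits and leaving out libraries. Some items are not reported here.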

Additional observations from a re-analysis of the deposited data

Results flagged for a closer look

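The difference between the lines was itself different between control and Flag-OGT libraries for 7820 of 12496 genes (limma interaction, adjusted over all tested genes). The values below are the control difference minus the Flag-OGT difference on the log2(FPKM + 1) scale for the genes at the ends of the control comparison, and in each the interaction was called. Among the genes higher in MHCC-97H it was 3.88 for PTHLH, 3.79 for CSAG1, 3.09 for VCAN, 3.37 for MAGEA12, 3.32 for SLC38A5 and 2.24 for DPYSL3. It was 3.87 for DNAJC12, 3.05 for TNS4, 3.09 for ANKRD1, 2.49 for ANXA10 and 2.80 for SPANXA1 and for its copy SPANXA2. Among the genes higher in MHCC-97L it was -5.04 for CST1, -5.27 for TSPAN8, -4.66 for CD24, -4.69 for ADH1C, -5.05 for PHGDH and -4.04 for CYP2B6. It was -4.0 for SERPINA1, -3.69 for APOE, -4.58 for ADAMTS10, -4.03 for LY6E, -3.94 for RBP4 and -3.67 for TF. These genes were chosen for their control difference, so a smaller difference in the other libraries was favoured by the choice.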

How the results depend on the processing

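With 2 libraries a line and unknown depth, low values carry an error that cannot be stated. Counts of calls (higher in MHCC-97H and in MHCC-97L) stayed within 1.5 times the main ones under every setting run, except at 2-fold: a pseudocount of 0.1 gave 473 and 1308 genes in place of 297 and 750, and median-of-ratios scaling 456 higher in MHCC-97H. Leaving out 1 control library gave 2483 to 3506 and 3692 to 4713 genes, 281 to 331 and 724 to 816 at 2-fold; the lone library was assumed to vary like the others. For the interaction, leaving out 1 library gave 3278 to 3899 genes above and 3528 to 4059 below, against 3837 and 3983. Same-numbered libraries did not deviate together (correlation -0.22), so the numbers were not taken as pairs; a replicate block gave 3245 and 4699 genes (interaction 3813 and 3972) and ended the call of OGA (adjusted p = 0.051). A crossed replicate block, chosen after seeing the data, gave 3889 and 5328. Of 326 named genes, calls changed in at most 4 under any setting, those of AFP, OGA, NKG7, HNF4A, FTL and FTH1. Of 49 lists, 8 changed side of the all-gene median with no filter, with the length and GC trend removed and without MHCC-97H control replicate 2, and 0 to 5 under the other settings. Medians of 42 of 45 runs moved with the trend removed, 27 with a pseudocount of 0.1, 22 without MHCC-97H control replicate 2, and 0 to 17 otherwise.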
